A study of Mus musculus with 12 samples.

Results

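The BCL2 family was followed here through 10 genes that govern the mitochondrial route of programmed cell death: Bcl2, Bcl2l1, Bcl2l2, Bcl2l11, Mcl1, Bax, Bak1, Bid, Bad and Bok. Its members were all probe sets that the platform's annotation pairs with one of these genes and with no other gene. There were 27 such probe sets, of 9 genes, among the 22690 probe sets and 12394 genes of each array. No probe set in the annotation used names Bax, a pore-forming relative of Bak1, so Bax was not analysed here. Mcl1 had 6 probe sets, Bcl2l11 had 5, Bcl2l1 and Bcl2l2 had 4 each, Bak1, Bid and Bad had 2 each, and Bcl2 and Bok had 1 each.

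BCL2 family proteins decide whether the outer mitochondrial membrane stays intact. The survival proteins, here those of Bcl2, Bcl2l1 (BCL-X), Bcl2l2 (BCL-W) and Mcl1, bind and restrain the others. The effectors, here those of Bak1 and Bok and also Bax, form pores that release cytochrome c, and the BH3-only proteins, here those of Bid, Bad and Bcl2l11 (BIM), set the effectors free or activate them. In the mammary gland the family is known for its part in the removal of milk-producing cells after weaning, and BCL-X and MCL1 for keeping these cells alive in lactation. Much of its control lies in splicing, phosphorylation and protein turnover, which arrays of this kind do not measure.

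The study hybridised RNA of 12 samples, each to its own array. The 3 cell lines derived from breast cancer had 1 array each: ME-B-T/t, which the labels call retransformed, the revertant ME-B, and ME-A. The 9 tissues were 3 WAP-SVT/t breast tumors, 3 mammary glands of WAP-SVT/t females on day 1 of lactation, and 3 glands of normal NMRI females on the same day. All tissue donors were female and of the NMRI strain. Per the labels, mammary epithelial cells of WAP-SVT/t animals make SV40 T/t antigens, whose large form inactivates p53 and RB family proteins. The sources used here give no animal ages and no reproductive state for the tumor-bearing animals. The Wap promoter is active in milk-producing cells, so a gland's transgene output depends on how many such cells it holds. Beyond sample numbers and tumor names the labels do not say whether samples came from separate animals, so p-values measure the spread between these samples, which may be technical.

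Signals are given in intensity units after scaling. Values below 57.5, the 30th percentile of all signals, were raised to that floor before log2 was taken, and signals under it have no order. A probe set was tested where at least 3 arrays of the fit exceeded the pooled median of 139.9. That left 17 of the 27 family probe sets in the tissue comparisons and 19 in lines against tumors, with all 9 genes kept in both. A probe set passed at an adjusted p under 0.05 in limma, with adjustment over all probe sets tested. Differences are log2 values with their standard error, over n = 3 arrays per group, and the number of arrays limits their precision.

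Some arrays differed in RNA quality and tissue mixture. The Gapdh ratio, which sets the control signal near the 3-prime end of that transcript over the signal near its 5-prime end, lay between 0.753 and 0.949 in the lines. Tumors 1 to 3 had ratios of 5.63, 0.982 and 0.969. Transgenic glands 1 to 3 had 10.7, 2.49 and 22.5, and NMRI glands 1 to 3 had 12.9, 2.28 and 40.3. The summed signal of 8 lactating-epithelium markers was 9694 to 17080 in tumors, 43910 to 51120 in transgenic glands and 97410 to 115900 in NMRI glands. None of the 8 was at the floor throughout a tissue group. Of 10 skeletal muscle markers, the sum was 14490 in tumor 1 and 245 to 381 in the other tumors. It was 26350 in transgenic gland 3 and 1176 to 1409 in the other transgenic glands, and 12760 to 27080 in NMRI glands. The sum of 8 luminal epithelial markers was 549 in ME-B-T/t, 1389 in ME-B and 27080 in ME-A, against 22190 to 28950 in tumors. In whole tissue, fewer cells of a type and less RNA per cell cannot be told apart.

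Few family probe sets passed in limma. Their share lay below that of all probe sets in both comparisons with NMRI glands, but above it, with 1 call, in lines against tumors. In tumors against NMRI glands 1 of 17 tested family probe sets passed, where 23.4% of all probe sets did. In tumors against transgenic glands 0 of 17 passed in limma, where 2.35% of all did (1.01% higher, 1.34% lower). A count of 0 lies close to that share. In transgenic against NMRI glands 0 of 17 passed in limma, where 9.15% of all did. In lines against tumors 1 of 19 passed, where 2.51% of all did (0.662% higher, 1.85% lower). That 1 was Bak1 1425716_s_at, which was tested only because the lines exceeded the median. At an unadjusted p under 0.05 in limma the family had 3 of 17 probe sets in tumors against NMRI glands, where 36.9% of all did. It had 1 of 17 in tumors against transgenic glands, where 15.5% of all did, and 1 of 17 in transgenic against NMRI glands, where 25% did. In lines against tumors it had 7 of 19, where 17.1% of all did. Of these 7, Bak1 1425716_s_at met the filter only through the lines, and Bcl2l1 1420887_a_at through the lines and tumor 2. A further 3 were probe sets of Mcl1. Groups did not overlap for 3 of 17 family probe sets in tumors against NMRI glands, where 42.6% of all did not. The counts were 1 of 17 in tumors against transgenic glands (19.2% of all) and 3 of 17 in transgenic against NMRI glands (29.8%). In lines against tumors the count was 5 of 19 (24.0% of all), all of Mcl1 or Bak1. The tissue comparisons share samples with each other, and the tumors also stand in the comparison with lines.

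**Figure D1:**
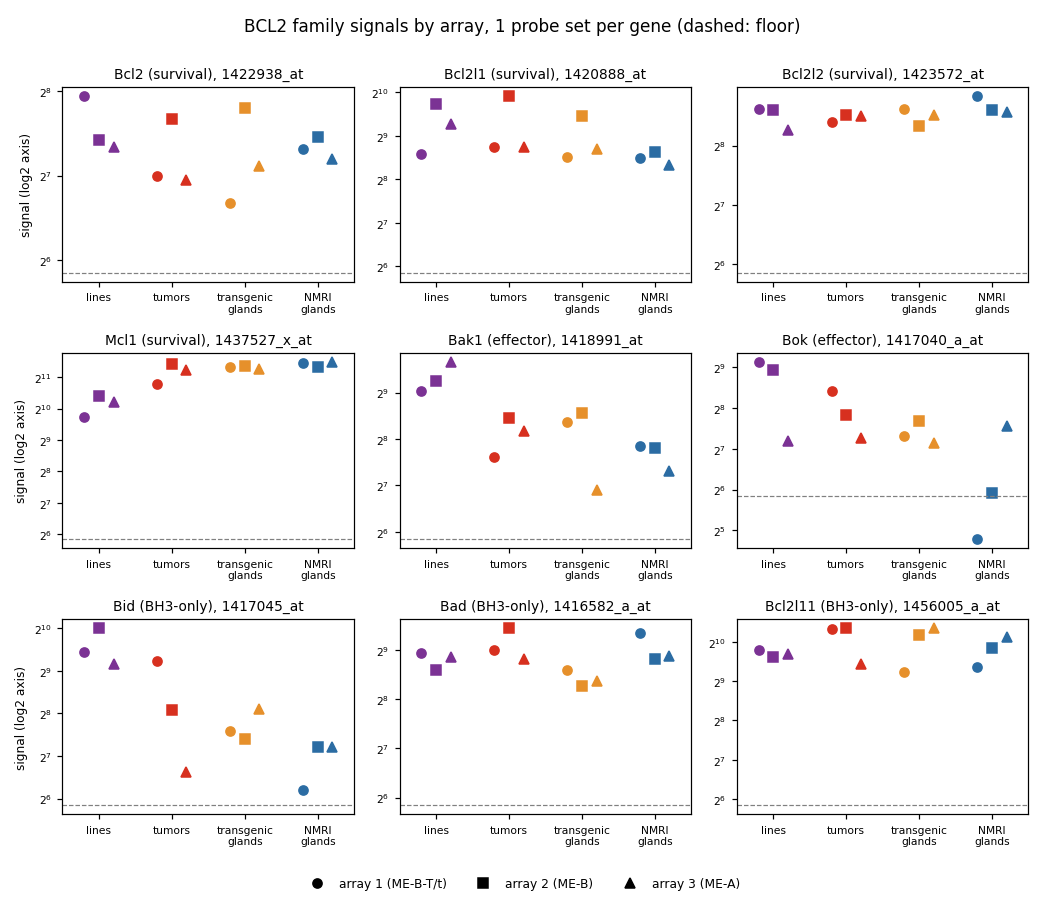
Signal of 1 probe set per gene on each array, in intensity units on a log2 axis whose range differs between panels. Groups run from lines through tumors and transgenic glands to NMRI glands, each point is 1 array, and the dashed line marks the floor of 57.5. The survival genes Bcl2l2 and, in tissues, Mcl1 lie within narrow bands, whereas Bok and Bid spread widely.

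Among survival genes, Bcl2 showed little difference between groups. Bcl2, named for its translocation in follicular lymphoma, had signals of 247, 171 and 161.5 in ME-B-T/t, ME-B and ME-A. It had 128, 203 and 123 in tumors 1 to 3, against 102.5, 224 and 138 in transgenic glands 1 to 3 and against 159, 176 and 147 in NMRI glands 1 to 3. The 3 tissue groups overlapped. Tumors against transgenic glands gave 0.0040 ± 0.33 (adjusted p = 0.997), and tumors against NMRI glands gave -0.12 ± 0.33 (adjusted p = 0.827). Lines against tumors gave 0.36 ± 0.32 (adjusted p = 0.601). Bcl2 is also known for its use by lymphocytes. Transgenic gland 2, with the highest Bcl2 signal among tissues, also had the highest summed signals of 9 T and NK cell markers, 2010, and of 8 B cell markers, 5748. Both sums were lower in tumors, at 314 to 378 and 661 to 1543, than in NMRI glands, at 1185 to 1709 and 1838 to 3508. Tumor 2, with a Bcl2 signal of 203, had the lowest T and NK cell sum of all arrays, 314. ME-B-T/t, with the highest Bcl2 signal of all arrays, had a T and NK cell sum of 416. Cd4 was at the floor in all arrays of every group, and Cd79b in all lines and tumors. Their part in the Bcl2 values was not tested.

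Bcl2l1, whose long splice form BCL-XL protects cells and whose short form promotes death, had probe sets that behaved differently. Probe set 1420888_at was above the median on every array, with 383, 853 and 618 in ME-B-T/t, ME-B and ME-A. It had 432, 974 and 429 in tumors 1 to 3, against 366, 700.3 and 413 in transgenic glands 1 to 3 and against 361, 394 and 323 in NMRI glands 1 to 3. Tumor 2 and transgenic gland 2 stood above the others of their groups, and the tumors lay above all NMRI glands. Tumors against NMRI glands gave 0.66 ± 0.36 and did not pass (adjusted p = 0.215), and groups did not overlap in 42.6% of all probe sets tested there. The tumors differed from transgenic glands by 0.26 ± 0.36, and the transgenic from NMRI glands by 0.40 ± 0.36.

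A second Bcl2l1 probe set, 1420887_a_at, was on in the lines and in a single tumor. Its signal was 236, 297 and 286 in ME-B-T/t, ME-B and ME-A and 263 in tumor 2. Tumors 1 and 3 had 11.6 and 45.3, the transgenic glands 10.2 to 12.3 and the NMRI glands 14.3 to 16.05, all below the floor. It entered the test of lines against tumors through the lines and tumor 2, and did not pass (1.51 ± 0.59, adjusted p = 0.260). That difference depends on the floor, since 2 tumors lay under it. Tumor 2 and tumor 3 had like Gapdh ratios of 0.982 and 0.969. The 2 remaining Bcl2l1 probe sets exceeded the median on no array.

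A promoter window of Bcl2l1 is shown because of this split between its probe sets. RefSeq's table for GRCm38.p6 holds 14 windows of 300 bases for the 10 family genes, each spanning a transcript start. They were searched on both strands for letters bound by factors tied to this model or to the family: E2F factors, which RB restrains (TTTCCCGC, TTTGGCGC, TTTCGCGC or TTTGCCGC), FOXO factors (GTAAACA), STAT factors (TTCNNNGAA) and the p53 response element by name. Matches stood in 1, 1, 0 and 0 of the 14 windows in that order, and in 2.26%, 3.65%, 8.30% and 0.0731% of all 32851 windows. The E2F match lay in 1 of 3 Bcl2l1 windows, on the strand opposite to the gene, in capitals here:
Bcl2l1, chr2:152830668-152830967, minus strand: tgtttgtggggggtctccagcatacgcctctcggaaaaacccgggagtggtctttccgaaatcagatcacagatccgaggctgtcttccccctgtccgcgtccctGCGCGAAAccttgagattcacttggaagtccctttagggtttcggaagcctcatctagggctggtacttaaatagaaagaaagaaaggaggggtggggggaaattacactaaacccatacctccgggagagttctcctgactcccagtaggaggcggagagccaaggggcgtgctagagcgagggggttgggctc
A match describes the letters and is neither a site in use nor a cause.

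Bcl2l2 stayed within a narrow range. Probe set 1423572_at had 395, 389 and 307 in ME-B-T/t, ME-B and ME-A, then 339.5, 365.5 and 364 in tumors 1 to 3. It had 392, 321 and 366 in transgenic glands 1 to 3 and against 460.4, 391 and 382 in NMRI glands 1 to 3. All 12 arrays lay between 307 and 460.4, and the NMRI glands lay above all tumors. Groups did not overlap in 42.6% of all probe sets tested in tumors against NMRI glands. Tumors differed by -0.0097 ± 0.21 from transgenic glands and by -0.20 ± 0.21 from NMRI glands (adjusted p = 0.527), and lines by 0.02 ± 0.23 from tumors. The 3 other Bcl2l2 probe sets did not exceed 83.3 on any array and were not tested.

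Mcl1, which encodes a short-lived survival protein, had signals above the median for all 6 probe sets on all 12 arrays. In tissues its probe sets differed little. Their log2 differences ran from -0.31 to 0.26 between tumors and transgenic glands, from -0.29 to 0.50 between tumors and NMRI glands and from -0.19 to 0.35 between transgenic and NMRI glands. None passed in limma, and none had an unadjusted p under 0.05 in the tissue comparisons.

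Between lines and tumors the Mcl1 probe sets split. Probe set 1456243_x_at had 414, 1003 and 767 in ME-B-T/t, ME-B and ME-A, against 1385, 1897 and 1891 in tumors 1 to 3. All lines lay below all tumors for this probe set and for 1456381_x_at and 1437527_x_at, and groups did not overlap in 24.0% of all probe sets tested in that comparison. Their differences were -1.32 ± 0.35, -1.11 ± 0.38 and -1.02 ± 0.27, and none passed (adjusted p = 0.125, 0.210 and 0.116). Probe sets 1448503_at and 1416881_at gave -0.13 ± 0.22 and -0.0032 ± 0.27, and 1416880_at gave -0.64 ± 0.31. The suffix x marks probe sets in which some probes may also match other transcripts. The 3 with that suffix had the lowest differences, so the value for Mcl1 depends on the probe set chosen.

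**Figure D2:**
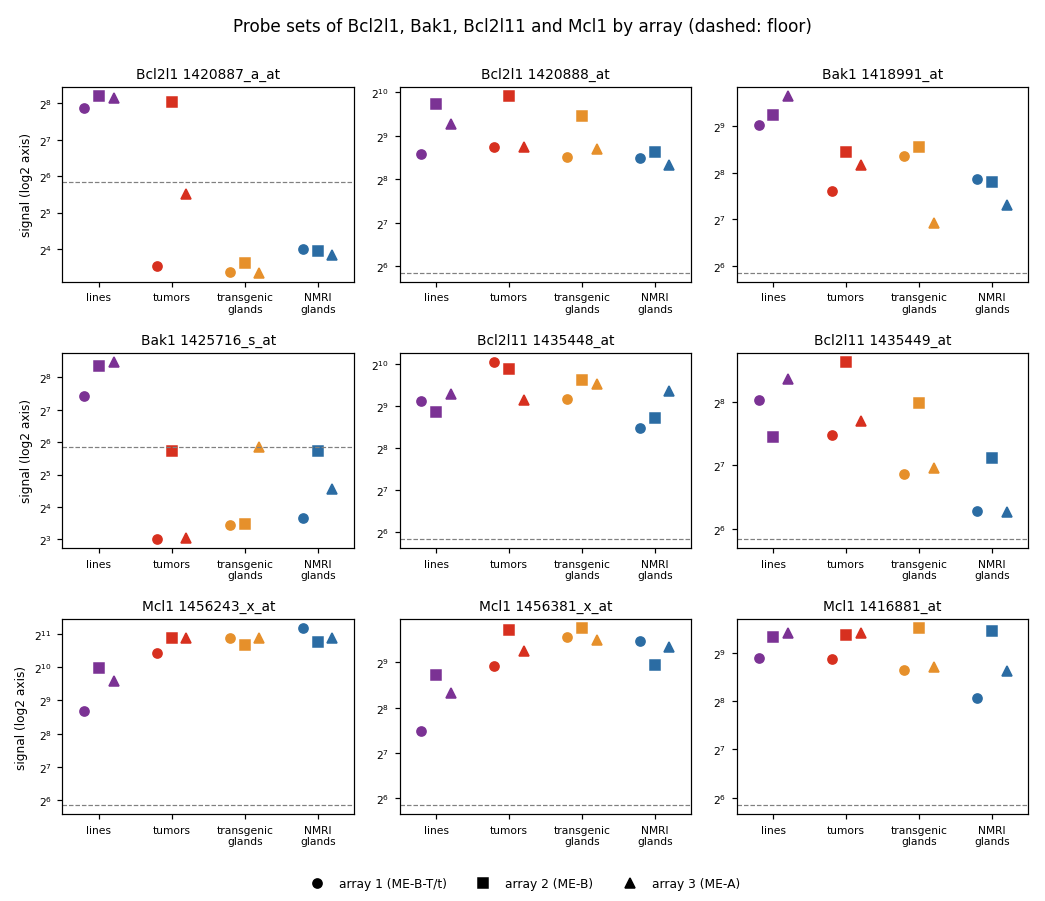
Signals of 9 probe sets of Bcl2l1, Bak1, Bcl2l11 and Mcl1 on each array, in intensity units on a log2 axis whose range differs between panels, with the floor of 57.5 dashed. Each point is 1 array, and points under the floor have no order. Bcl2l1 1420887_a_at and Bak1 1425716_s_at are above the floor in all 3 lines, and Bcl2l1 also in tumor 2.

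Of the effectors, Bak1 had higher signals in all 3 lines than in all 3 tumors by both of its probe sets. The 1 that passed was tested only through the lines. Probe set 1425716_s_at had 172, 325 and 359 in ME-B-T/t, ME-B and ME-A, against 8.05, 53.04 and 8.23 in tumors 1 to 3. The transgenic glands had 10.8, 11.1 and 57.3 and the NMRI glands 12.7, 52.6 and 23.5. Every tissue array was at the floor, so the lines were at least 4.73-fold higher than the tumors (2.24 ± 0.34, adjusted p = 0.0202). This probe set was tested there only because the lines exceeded the median, so it had to differ. The call was lost without tumor 1, tumor 2 or tumor 3 (adjusted p = 0.193, 0.210 and 0.189), while the difference stayed at 2.24. Of all probe sets 0, 1 and 3 passed in these fits, against 300 with all arrays, so the losses are not particular to Bak1. The call was also lost with no filter on low signals (adjusted p = 0.100). Without any 1 line the probe set no longer met the filter. The suffix s marks a probe set whose probes all match several transcripts.

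The second Bak1 probe set, 1418991_at, was above the floor on every array. It had 525, 605 and 811 in ME-B-T/t, ME-B and ME-A, against 195, 349 and 287 in tumors 1 to 3. All lines again lay above all tumors, by 2.36-fold on average, but the difference of 1.24 ± 0.31 did not pass (adjusted p = 0.106). Groups did not overlap in 24.0% of all probe sets tested in lines against tumors. Transgenic glands 1 to 3 had signals of 329, 379 and 120.2, and NMRI glands 1 to 3 had 232, 223 and 159. No tissue comparison passed for it. Tumor 1, transgenic gland 3 and NMRI gland 3 were the lowest of their groups. Each also had the highest Gapdh ratio of its group, and the part of RNA quality was not tested for Bak1 in lines against tumors. In all 3 lines, 5 of 7 adipocyte and 6 of 10 muscle markers were at the floor.

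The promoter window of Bak1 is shown because its probe set 1418991_at, though it did not pass, lay higher in all lines than in all tumors. It held none of the motifs:
Bak1, chr17:27028578-27028877, minus strand: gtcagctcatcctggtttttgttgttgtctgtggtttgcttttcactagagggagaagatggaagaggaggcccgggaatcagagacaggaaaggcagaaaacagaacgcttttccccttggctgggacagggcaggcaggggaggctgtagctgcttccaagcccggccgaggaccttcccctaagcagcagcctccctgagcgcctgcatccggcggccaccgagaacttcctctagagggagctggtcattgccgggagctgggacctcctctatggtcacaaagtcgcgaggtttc

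Bok, an effector that can act without the others, was uneven among NMRI glands. Its signal was 563, 486 and 147 in ME-B-T/t, ME-B and ME-A and 342, 228 and 155 in tumors 1 to 3. The transgenic glands 1 to 3 had 158, 205 and 140.4, against 27.6, 60.8 and 190 in NMRI glands 1 to 3. NMRI gland 3 overlapped the tumors and the transgenic glands, while NMRI glands 1 and 2 lay below both. Tumors against NMRI glands gave 1.40 ± 0.47 and missed the threshold (adjusted p = 0.0537), and transgenic against NMRI glands gave 0.93 ± 0.47 (adjusted p = 0.245). Without NMRI gland 3, the array with the Gapdh ratio of 40.3, these were 1.96 (adjusted p = 0.00845) and 1.49 (adjusted p = 0.0472). With the log2 Gapdh ratio as a covariate, tumors against NMRI glands gave 1.93 (adjusted p = 0.0307), and the adjusted p was 0.0450 without scaling and 0.0468 with 1 probe set per gene. NMRI gland 1 was at the floor, so these values depend on it. Lines against tumors gave 0.58 ± 0.56, with ME-A below all tumors and the other lines above them.

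Of the BH3-only genes, Bcl2l11 was higher in tumors by 1 of its probe sets. The protein, BIM, binds all survival proteins of the family. Probe set 1435449_at had 178, 395.5 and 208 in tumors 1 to 3, against 117, 251 and 124 in transgenic glands 1 to 3 and against 78.1, 139.3 and 76.7 in NMRI glands 1 to 3. All tumors lay above all NMRI glands, with 2.60-fold more signal (1.38 ± 0.42, adjusted p = 0.0356). The transgenic glands lay between, at 0.71 ± 0.42 over NMRI glands (adjusted p = 0.318), with tumors at 0.67 ± 0.42 over them (adjusted p = 0.473). Groups did not overlap in 42.6% of all probe sets tested in tumors against NMRI glands. Among tissues only the tumors and transgenic gland 2 exceeded the median. The probe set thus met the filter through the tumors, the group in which it was highest. The lines had 261, 175 and 328 in ME-B-T/t, ME-B and ME-A and did not differ from tumors beyond the spread (0.0083 ± 0.39, adjusted p = 0.994).

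The Bcl2l11 call depended on single arrays and on 2 of the settings. It was lost without tumor 2 or tumor 3 (adjusted p = 0.126 and 0.0612) and without NMRI gland 1 or 3 (adjusted p = 0.121 and 0.106). With no filter on low signals the adjusted p was 0.109. With the Gapdh ratio as a covariate the difference was 0.69 (adjusted p = 0.236). Within each tissue group the array numbered 2 had the highest signal, and gland 2 had the lowest Gapdh ratio in both gland groups.

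Other Bcl2l11 probe sets moved less. Probe set 1435448_at had 1072, 944 and 566 in tumors 1 to 3, against 579.6, 793 and 746 in transgenic glands 1 to 3 and against 358, 422 and 656.5 in NMRI glands 1 to 3. Tumor 3 lay below NMRI gland 3, and the difference from NMRI glands, 0.84 ± 0.32, did not pass (adjusted p = 0.0806). It reached adjusted p = 0.0385 without tumor 3 and 0.0477 without NMRI gland 3. Probe set 1456005_a_at gave 0.27 ± 0.37 (adjusted p = 0.635), and the 2 remaining probe sets were not tested in tissue. Against tumors, the lines had -0.60 ± 0.31 for 1435448_at and -0.35 ± 0.30 for 1456005_a_at.

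The promoter windows of Bcl2l11 are shown because 1 of its probe sets passed in tissue. The first of 2 windows holds the only FOXO letters among the 14, in capitals:
Bcl2l11, chr2:128125788-128126087, plus strand: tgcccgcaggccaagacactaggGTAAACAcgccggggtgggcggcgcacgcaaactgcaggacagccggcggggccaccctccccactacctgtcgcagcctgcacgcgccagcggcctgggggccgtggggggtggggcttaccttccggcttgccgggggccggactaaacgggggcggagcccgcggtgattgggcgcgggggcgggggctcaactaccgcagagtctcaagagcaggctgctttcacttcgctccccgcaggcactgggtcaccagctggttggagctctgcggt
Bcl2l11, chr2:128127325-128127624, plus strand: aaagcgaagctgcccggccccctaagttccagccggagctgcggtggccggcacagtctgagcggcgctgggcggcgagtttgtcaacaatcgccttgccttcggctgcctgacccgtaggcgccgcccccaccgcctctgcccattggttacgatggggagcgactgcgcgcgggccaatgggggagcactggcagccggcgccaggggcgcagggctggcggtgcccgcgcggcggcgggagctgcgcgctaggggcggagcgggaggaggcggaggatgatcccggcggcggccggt

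Bid, which is cut by caspase 8 to link death receptors to mitochondria, was high in the lines and in tumor 1. Probe set 1417045_at had 697, 1028 and 574 in ME-B-T/t, ME-B and ME-A, and 595, 270.3 and 98.8 in tumors 1 to 3. It had 193, 168 and 272 in transgenic glands 1 to 3 and against 73.4, 147 and 149 in NMRI glands 1 to 3. The tumors overlapped both gland groups, and all transgenic glands lay above all NMRI glands. Groups did not overlap in 29.8% of all probe sets tested in transgenic against NMRI glands. Lines against tumors gave 1.56 ± 0.62 (adjusted p = 0.264), tumors against NMRI glands 1.10 ± 0.56 (adjusted p = 0.182) and transgenic against NMRI glands 0.82 ± 0.56 (adjusted p = 0.397). Without tumor 3, tumors against NMRI glands gave 1.77 and passed (adjusted p = 0.0233). Tumor 1 and transgenic gland 3 each had the highest muscle marker sum and the highest Bid signal of their group. NMRI gland 1 had the highest muscle sum of all arrays, 27080, and the lowest Bid signal, 73.4. The lines had muscle sums of 529.5 to 657 and Bid signals above those of most tissues. The part of muscle in the Bid signals was not tested. The second probe set, 1448560_at, had 161.5, 238 and 58.2 in ME-B-T/t, ME-B and ME-A and was below the floor in all tissues.

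Bad, a BH3-only protein held inactive by survival kinases such as AKT, was lowest in transgenic glands. Probe set 1416582_a_at had 509, 699.8 and 448 in tumors 1 to 3, against 384, 309 and 332 in transgenic glands 1 to 3 and against 654, 448 and 469 in NMRI glands 1 to 3. All transgenic glands lay below all tumors and below all NMRI glands. Neither difference passed in limma. Tumors exceeded transgenic glands by 0.67 ± 0.26 (adjusted p = 0.247), and transgenic against NMRI glands gave -0.60 ± 0.26 (adjusted p = 0.180). Groups did not overlap in 19.2% of all probe sets tested in tumors against transgenic glands, and in 29.8% in transgenic against NMRI glands. The second probe set, 1416583_at, had 181, 461 and 243 in tumors 1 to 3, against 202, 211 and 37.2 in transgenic glands 1 to 3 and against 165, 237 and 63.3 in NMRI glands 1 to 3. Glands 3 were lowest in both gland groups, and the probe set gave -0.0059 ± 0.61 for transgenic against NMRI glands, so the probe sets differ there.

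**Figure D3:**
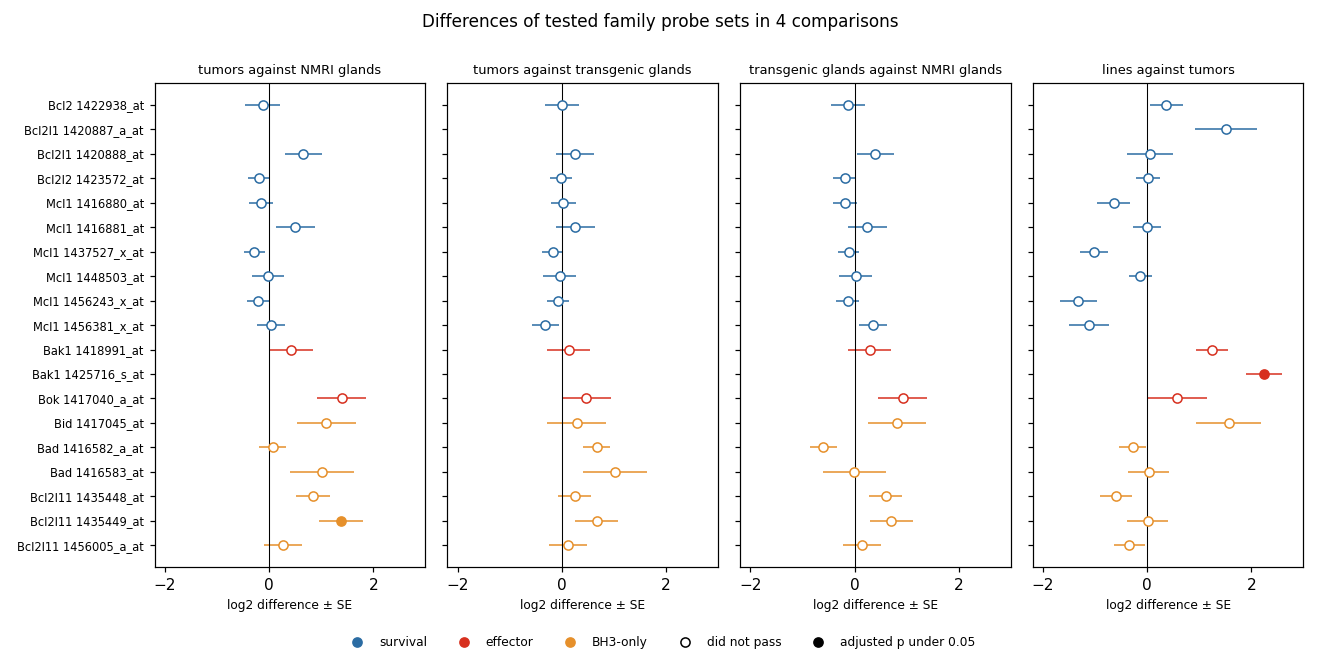
Log2 differences with their standard error for the family probe sets tested in 4 comparisons, n = 3 arrays per group. Colors mark survival, effector and BH3-only genes, and filled points have an adjusted p under 0.05. The filled points are Bcl2l11 1435449_at in tumors against NMRI glands and Bak1 1425716_s_at in lines against tumors.

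Death-promoting and survival genes were set side by side. In tumors against NMRI glands, 8 of 8 tested death-promoting probe sets had differences above 0, with a median of 0.93, whereas 3 of 9 survival probe sets did, with a median of -0.12. Of all 12673 probe sets tested, 6648 had differences above 0, and the median over all was 0.05. In tumors against transgenic glands the counts were 8 of 8 and 4 of 9, with medians of 0.38 and -0.0097, against 0.02 over all. In transgenic against NMRI glands they were 6 of 8 and 4 of 9, with medians of 0.44 and -0.11, against 0.01 over all. In lines against tumors they were 6 of 9 and 4 of 10, with medians of 0.03 and -0.07, against 0.03 over all. Over all probe sets, 6537 of 12673, 6455 of 12673 and 6207 of 11940 were above 0 in the last 3 comparisons, in that order. Most of these single differences did not pass, and probe sets of 1 gene are not independent. In tissue the 8 death-promoting probe sets came from 5 genes, and 6 of the 9 survival probe sets were of Mcl1.

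With 1 probe set per gene, the one with the highest mean signal, the death-promoting medians were smaller in the tissue comparisons and larger in lines against tumors. Mcl1 stood here by 1437527_x_at, 1 of its 3 probe sets with the suffix x. In tumors against NMRI glands the 5 death-promoting genes ran from 0.07 for Bad to 1.40 for Bok, with a median of 0.42. The 4 survival genes ran from -0.29 for Mcl1 to 0.66 for Bcl2l1, with a median of -0.16. The other Mcl1 probe sets reached 0.50 in that comparison. In transgenic against NMRI glands the medians were 0.29 and -0.12, and in tumors against transgenic glands 0.28 and -0.0028. In lines against tumors they were 0.58 and 0.04, with 3 of 5 and 3 of 4 genes above 0.

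**Figure D4:**
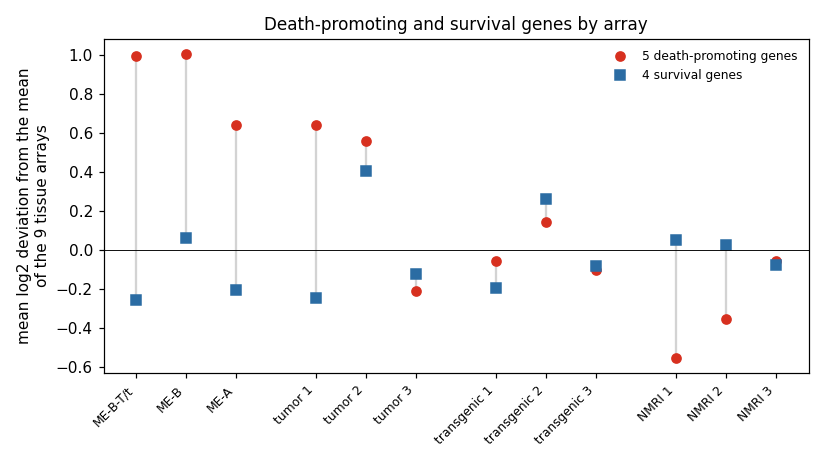
Mean log2 deviation of 5 death-promoting genes (circles) and 4 survival genes (squares) on each array, 1 probe set per gene, from each gene's mean over the 9 tissue arrays. Lines stand at the left, then tumors, transgenic glands and NMRI glands. The gap between the classes is widest in the lines and tumor 1, and most reversed in NMRI glands 1 and 2. Mcl1 stands here by 1437527_x_at.

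By array, the mean deviation of the death-promoting genes minus that of the survival genes was 1.25, 0.94 and 0.85 in ME-B-T/t, ME-B and ME-A. It was 0.89, 0.16 and -0.09 in tumors 1 to 3, against 0.14, -0.11 and -0.02 in transgenic glands 1 to 3 and against -0.60, -0.38 and 0.02 in NMRI glands 1 to 3. All 3 lines lay above tumors 2 and 3, and tumor 1 stood between ME-A and ME-B. Mcl1 stood in the survival mean by 1437527_x_at, at -1.02 in lines against tumors, where its 6 probe sets ran from -1.32 to -0.0032. The values for the lines depend on that choice. Tumor 3 overlapped both gland groups. NMRI gland 3, at 0.02, stood above the other NMRI glands and had the highest Gapdh ratio.

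Between the lines, with 1 array each and no test, family probe sets were called past a 2-fold difference if at least 1 line exceeded the median. Of 21 kept, 1 was higher and 3 lower in ME-B-T/t against ME-B, where 8.26% and 5.66% of all 13293 kept probe sets were (13.9% in either direction). Survival genes made up the lower ones. Bcl2l1 1420888_at was 2.23-fold lower (383 in ME-B-T/t, 853 in ME-B). Mcl1 1456243_x_at and 1456381_x_at were 2.42-fold and 2.36-fold lower, and the 4 other Mcl1 probe sets were also lower in ME-B-T/t, by less than 2-fold. Bcl2l1 1420887_a_at had 236 in ME-B-T/t and 297 in ME-B. The higher one was Bcl2l11 1456006_at, with 168 in ME-B-T/t and 68.4 in ME-B.

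In ME-B against ME-A few family probe sets passed 2-fold, below the share of all. Of 21 probe sets, 2 were higher and 0 lower, where 8.90% and 10.6% of all were (19.5% in either direction). Bok was 3.32-fold higher (486 in ME-B, 147 in ME-A) and Bid 1448560_at 4.09-fold higher (238 in ME-B, 58.2 in ME-A). The brighter Bid probe set 1417045_at had 1028 in ME-B and 574 in ME-A. In ME-B-T/t against ME-A, 2 were higher and 1 lower, where 13.1% and 11.3% of all were (24.4% in either direction). Bok was 3.84-fold higher, Bid 1448560_at 2.78-fold higher and Bak1 1425716_s_at 2.09-fold lower. With 1 array per line these folds have no replicate check.

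Genes around the family were taken from 5 lists. Each listed gene stood by its brightest probe set on average, whereas the shares given beside the list counts are over all probe sets. Of 15 further BCL2 relatives, 10 had a probe set, and 6 were tested in tissue. Bcl2l15, a BCL2-like gene, was the only one to pass, in all 3 tissue comparisons. Its signal was 5.86, 48.9 and 55.6 in tumors 1 to 3, all under the floor, against 298, 149 and 189 in transgenic glands 1 to 3 and against 1545, 845.5 and 875 in NMRI glands 1 to 3. The 3 groups did not overlap. Of all probe sets, 42.6% did not overlap and 10.8% passed as lower in tumors against NMRI glands. In tumors against transgenic glands these shares were 19.2% and 1.34%, and in transgenic against NMRI glands 29.8% and 3.47%. For Bcl2l15, tumors were at least 18.2-fold lower than NMRI glands (adjusted p = 1.93e-05) and at least 3.54-fold lower than transgenic glands (adjusted p = 0.0176). Transgenic glands were 5.14-fold lower than NMRI glands (adjusted p = 0.00118). The lactating-epithelium marker sum had the same order of groups, and its part was not tested. The call against transgenic glands was lost without transgenic gland 1 or 3 or tumor 2, with the Gapdh ratio as a covariate and with no filter (adjusted p up to 0.107). ME-A had 213 for Bcl2l15, and both ME-B lines were under the floor.

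Of 9 tested genes of the apoptosome and caspases, 2 rose and 2 fell in tumors against NMRI glands, 0 changed in tumors against transgenic glands and 2 rose in transgenic against NMRI glands. Over all probe sets, 12.5% rose and 10.8% fell in the first, and 5.68% rose and 3.47% fell in the last. Casp2, an initiator caspase gene, had a mean signal of 1276 ± 258 in tumors (SD, n = 3, here and for the genes that follow) and 1228 ± 12.1 in transgenic glands, against 552 ± 174 in NMRI glands (adjusted p = 0.0104 and 0.0236). Apaf1, the scaffold that cytochrome c activates, had 263 ± 46.8 in tumors and 283 ± 21.8 in transgenic glands, against 152 ± 16.2 in NMRI glands (adjusted p = 0.0344 and 0.0366). Endog, a mitochondrial nuclease gene, fell to 78.6 ± 21.1 in tumors, against 243 ± 96.7 in NMRI glands (adjusted p = 0.0106). Cycs, which encodes cytochrome c, fell to 2321 ± 442 in tumors, against 4497 ± 1244 in NMRI glands (adjusted p = 0.0329). It passed for 1 of 3 probe sets, and was lost with the Gapdh covariate, after quantile normalization, with no trend or no filter, and without tumor 2 or 3 or NMRI gland 1 or 3 (adjusted p up to 0.214). Without any 1 of the 6 glands or tumor 2 Apaf1 lost its call in transgenic against NMRI glands, as it did with only those groups in the fit (adjusted p up to 0.138). Against NMRI glands it lost its tumor call without tumor 1 or 2 or any 1 NMRI gland, with the Gapdh covariate and after quantile normalization (adjusted p up to 0.114). Casp2 lost its call in transgenic against NMRI glands without transgenic gland 1 or 2 or NMRI gland 1 and with no filter (adjusted p up to 0.0916). Endog lost its call without NMRI gland 1 and with the Gapdh covariate (adjusted p up to 0.0674).

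Of 5 tested inhibitor-of-apoptosis genes, 1 rose in tumors against NMRI glands and 2 in transgenic against NMRI glands, where 12.5% and 5.68% of all probe sets rose, and none fell. Birc5, or survivin, which also acts in cell division, had 1330 ± 83.4 in tumors and 1397 ± 254 in transgenic glands, against 75.3 ± 61.4 in NMRI glands (adjusted p = 1.93e-05 and 2.85e-05), with 1 NMRI gland at the floor. Birc2, a ubiquitin ligase gene, had 888 ± 235 in transgenic glands and 372 ± 69.6 in NMRI glands (adjusted p = 0.0160), and lost its call without NMRI gland 1 or 2 (adjusted p up to 0.0790). None of 5 tested death receptor genes passed in any comparison.

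Of 19 tested regulators of the family, 3 fell in tumors against NMRI glands, where 10.8% of all probe sets fell, and none passed elsewhere. Stat5a, a transcription factor gene of prolactin signalling, had 411 ± 35.0 in tumors and 1177 ± 605 in NMRI glands (adjusted p = 0.0328). Pim1, a survival kinase gene, had 295 ± 57.0 in tumors and 613 ± 188 in NMRI glands (adjusted p = 0.0472). Each passed for 1 of 2 probe sets tested and lost its call without any 1 tumor (adjusted p up to 0.125 for Stat5a and 0.170 for Pim1). Stat5a also lost it without NMRI gland 1 or 2, and Pim1 without NMRI gland 1 or 3 or transgenic gland 1 and with the Gapdh covariate. Both lost it with no filter. Tpt1, whose protein binds MCL1, had 9566 ± 444 in tumors and 15949 ± 1120 in NMRI glands (adjusted p = 0.00363), and gave 0.12 on the log2 scale after quantile normalization, where it did not pass. It also missed the threshold with no filter. No list gene passed in lines against tumors.

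Between the lines, 0 genes of these lists passed 2-fold in ME-B-T/t against ME-B, where 13.9% of all probe sets did. In ME-B against ME-A, 1 relative of 6 kept was higher and 2 lower, 1 inhibitor-of-apoptosis gene of 5 was lower and 4 regulators of 19 were lower, where 8.90% of all probe sets were higher and 10.6% lower. Bnip3, a hypoxia-induced BH3-like gene, was 2.79-fold higher and Bik, a BH3-only gene, 4.59-fold lower. Bcl2l15 was at least 3.71-fold lower, the inhibitor gene Birc3 5.39-fold lower and the kinase gene Akt1 4.32-fold lower. Stat5a and Fbxw7, whose protein marks MCL1 for destruction, were 2.95-fold lower and 2.91-fold lower, and Foxo3, a transcription factor gene named after its values were seen, was 2.71-fold lower. In ME-B-T/t against ME-A these genes other than Foxo3, which was 1.66-fold lower, passed 2-fold in the same direction, and Socs3, a feedback inhibitor gene of STAT signalling, and Tmbim6, an inhibitor gene of BAX-induced death, were 2.54-fold and 2.02-fold higher.

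The genes whose pattern was most like the called members were found by Pearson correlation of log2 signal over the 12 arrays, among 8198 other genes. For Bak1 1425716_s_at these were Igf2bp1 (0.983), Ifitm10 (0.960) and Csnk1g1 (0.955), and its 9 tissue arrays were all at the floor, so the likeness rests on the lines. For Bcl2l11 1435449_at they were Nfkb2 (0.936), Iqsec1 (0.907) and Slc4a2 (0.906). The arrays fall into separate groups, so these values describe group patterns.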

How the data were processed

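RNA of 12 arrays was analysed from the deposited probe set signals, intensity values on a linear scale that the authors made with MAS5, per the submitters' processing notes. The sources used here give neither the MAS5 version nor its scaling target. Signals of each array were brought to a common trimmed mean, leaving out 2% of values at either end. A floor of 57.5, the 30th percentile, then replaced lower signals before taking log2. The 64 Affymetrix control probe sets were left out. Genes came from the platform's annotation with symbols updated through RefSeq: 20380 probe sets named 1 gene, 691 several and 1555 none.

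Tests used limma 3.58.1 in R 4.3.3 (lmFit and eBayes with an intensity trend), two-sided, with Benjamini-Hochberg adjustment over 12673 probe sets in the fit of 9 tissue arrays and 11940 in the fit of lines and tumors. The 3 lines were taken as 1 class although they are different lines. The procedure was tested on simulated data. Figures used matplotlib 3.10.9 in Python 3.11.15.

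The members and lists were chosen with earlier results of these data known. All members are named. From each pathway list up to 3 called genes per direction with the smallest p are named, each by its brightest probe set on average in the fit; between lines, up to 3 past 2-fold per direction with the largest fold. Alternatives covered scaling, floor, filter, trend, probe sets per gene, the samples fitted, the Gapdh ratio, the replicate number and each array left out. Same-numbered transgenic and NMRI glands deviated together, with correlations of 0.250, 0.435 and 0.445 over probe sets, so the sample numbers were taken to pair these glands. The adjusted p-values given for these glands come from the fit without that pairing, which entered only as an alternative. Tumors were not so paired: their same-numbered correlations ran from -0.151 to 0.358.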

Additional observations from a re-analysis of the deposited data

How the results depend on the processing

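The counts of family probe sets that passed depended on the settings. In tumors against NMRI glands, 1 passed in the values reported, 2 without scaling and 0 with no filter on low signals. With the Gapdh covariate and with 1 probe set per gene the count was 1, but the probe set was that of Bok and not Bcl2l11 1435449_at. In lines against tumors, 1 passed in the values reported, and 0 with no filter and 0 with 1 probe set per gene, where the Bak1 probe set called was not the one chosen. Without each array in turn the counts ran from 0 to 1 in transgenic against NMRI glands, from 0 to 0 in tumors against transgenic glands, from 0 to 2 in tumors against NMRI glands and from 0 to 0 in lines against tumors. Leaving out 1 array of lines or tumors left that class with 2 arrays. Over all probe sets, 0, 1 and 3 then passed in lines against tumors without tumor 1, 2 and 3, against 300 with all arrays. The calls over all probe sets rose above 300 only without ME-A. With the replicate number as a block, the counts were 0, 0 and 1 for the 3 tissue contrasts (transgenic to NMRI glands, tumors to transgenic glands, tumors to NMRI glands). The tumors are not paired with the glands by number, so the block bears on the glands only. A block over the 6 glands alone, chosen after seeing the data, gave 0. Over all probe sets that gland block raised the calls to 1883 of 11759, from 963 of 11759 in the same glands without it. Counts between lines stayed within 1.5 times under all settings tried. Of the called differences, the 1 of Tpt1 in tumors against NMRI glands turned to 0.12 after quantile normalization, and no other called difference turned its sign under the settings tried. Other shifts of calls are given with the genes, and their cause was not tested. Signals near the floor limit what can be said of Bok, Bid 1448560_at, Bak1 1425716_s_at and Bcl2l1 1420887_a_at.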

Other observations

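Tumor 2 had the highest signal of the 3 tumors in 13 of the 17 family probe sets tested in tissue (76.5%), against 32.8% of all 12673 probe sets tested. Gland 2 was the highest of its group in both gland groups for 5 of 17 (29.4%), against 17.9% of all. Gland 3 was the lowest in both for 2 of 17 (11.8%), against 20.7% of all. Probe sets of the same gene share their source, so these shares describe the arrays and are not tested.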
